A study of Mus musculus with 8 samples.

Results

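The channels and pumps that move salt and water out of the alveoli were followed at the RNA level in mouse lung after lipopolysaccharide (LPS), with or without tangeretin (Tan). The 9 genes were taken by name from a list of 9: the 3 subunits of the epithelial sodium channel, Scnn1a, Scnn1b and Scnn1g, the sodium pump subunit Atp1b1, the water channels Aqp1, Aqp5 and Aqp4, the chloride channel Cftr and the cotransporter Slc12a2. All 9 were found among the 24584 genes of the tables, and all 9 were among the 15706 genes with enough reads to be tested. Lungs came from 4 mice given LPS alone (LPS group) and from 4 mice given tangeretin before LPS (LPS + Tan group).

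Both groups were wild-type male ICR mice, an outbred strain, 6 to 8 weeks old. They received LPS of Escherichia coli O111:B4 into the peritoneum at 5 mg/kg, and lungs were taken 12 h later. The LPS + Tan group also received tangeretin, a polymethoxylated flavonoid of citrus peel, into the peritoneum at 50 mg/kg, 30 min ahead of LPS. No untreated mice and no mice given tangeretin alone were sequenced, so that the comparison shows LPS + Tan against LPS and not the response to LPS. Unsorted lung tissue was sequenced, and in such bulk samples fewer cells of a type and less RNA per cell cannot be told apart.

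In the alveolus, sodium enters epithelial cells through the apical epithelial sodium channel (ENaC) and is pumped out at the basolateral side by Na,K-ATPase. Chloride follows, in part through CFTR, and water follows the salt, so that oedema fluid leaves the airspace. Beta-adrenergic agonists, acting through cAMP, speed up this clearance. Scnn1a encodes the pore-forming alpha subunit of ENaC, and Scnn1b and Scnn1g its beta and gamma subunits. Atp1b1 encodes the beta1 subunit that brings the pump to the cell surface. Aqp5 is the water channel of type 1 alveolar cells, Aqp1 that of endothelium and red cells, and Aqp4 that of airway epithelium. Slc12a2 encodes NKCC1, which loads cells with chloride and so serves fluid secretion.

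None of the 9 genes differed between LPS + Tan and LPS beyond the spread between mice. No gene passed an unadjusted p of 0.05 in the quasi-likelihood test of edgeR, where 5.12% of all genes tested did. No gene passed after Benjamini-Hochberg adjustment over all 15706 genes, where 0% did, and the adjusted p of the 9 genes lay between 0.938 and 0.998. In none of them were all LPS + Tan lungs above or below all LPS lungs, which 2.73% of all genes tested showed. Fitted values were higher in LPS + Tan for 6 genes and lower for 3, with a median log2 fold change of 0.05, against 0.01 over all genes tested. The 95% intervals reached from -0.63 to 0.61 on the log2 scale over the 9 genes, so that changes beyond 1.54-fold in either direction lay outside the interval of every gene, while smaller ones did not.

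Per length of transcript, the genes covered a wide range of levels. Given as FPKM, fragments scaled by transcript length and library size, Atp1b1 had the highest mean, 262 ± 32.2 (SD over all 8 lungs), followed by Aqp1 at 219 ± 51.0. Scnn1a was at 88.5 ± 17.4, Scnn1g at 66.5 ± 5.56 and Aqp5 at 57.9 ± 11.0 FPKM. Slc12a2 was at 51.8 ± 7.29 and Scnn1b at 36.4 ± 3.45 FPKM. Aqp4, at 5.61 ± 1.26, and Cftr, at 3.21 ± 0.423 FPKM, were the least abundant. The ranges over the 8 lungs did not overlap between Aqp1 and Scnn1a, between Scnn1b and Aqp4, or between Aqp4 and Cftr. For the other neighbours in this order the ranges overlapped, although Scnn1g was above Aqp5 in 7 and Slc12a2 above Scnn1b in 8 of 8 lungs.

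**Figure D1:**
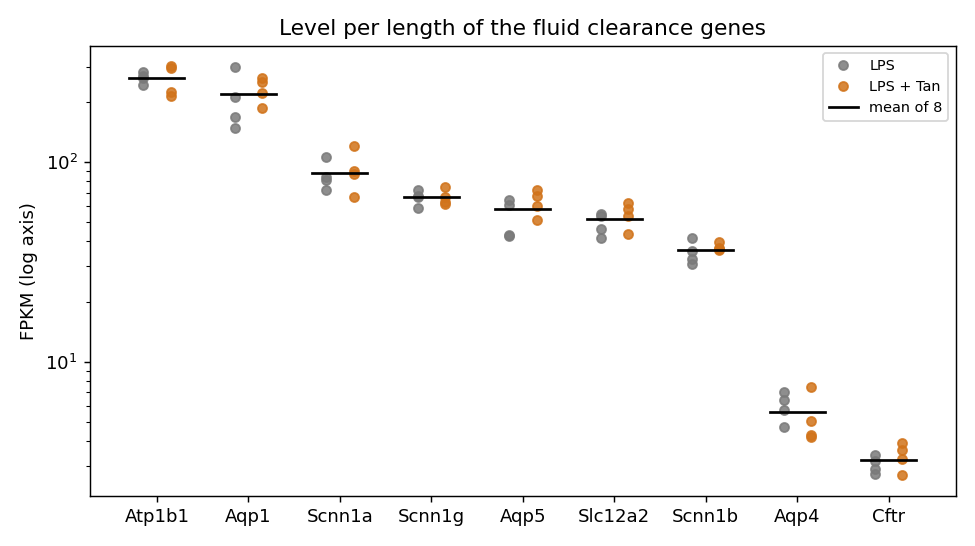
FPKM (log axis) of the 9 fluid clearance genes in each of the 8 lungs, ordered by mean level, with grey points for LPS and orange points for LPS + Tan. Atp1b1 and Aqp1 lie at the top, with means of 262 and 219, and Cftr at the bottom, with a mean of 3.21.

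The 3 ENaC subunits, which together form the sodium channel, were present in every lung, at levels that overlapped between the groups. Levels of single genes between lungs are given below as CPM, counts scaled to library size and by the trimmed mean of M-values. Scnn1a had 353, 385, 533 and 407 CPM in LPS replicates 1 to 4 and 419, 572, 395 and 329 CPM in LPS + Tan replicates 1 to 4. The highest and the lowest lung were both in the LPS + Tan group, and the groups overlapped throughout. The means were 419.8 ± 78.6 in LPS and 429 ± 103 CPM in LPS + Tan (SD, n = 4), with a log2 fold change of 0.03 ± 0.18 (SE) and an edgeR adjusted p of 0.998.

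Scnn1b, the beta subunit, had 98.4, 112, 92.1 and 84.2 CPM in the LPS lungs and 96.5, 107, 92.8 and 103 CPM in the LPS + Tan lungs. Its coefficient of variation over the 8 lungs was 8.95% in CPM, the lowest of the 9 genes on that scale, and 9.47% in FPKM, where Scnn1g was lower at 8.35%, and the LPS + Tan values lay within the range of the LPS values. Its means were 96.6 ± 11.6 and 99.7 ± 6.32 CPM (SD, n = 4), and its log2 fold change was 0.05 ± 0.10 (SE), with an adjusted p of 0.983 by edgeR. Scnn1g, the gamma subunit, had 210.0, 202, 232 and 180.4 CPM in LPS and 183, 229, 182 and 210.0 CPM in LPS + Tan. Again the LPS + Tan values lay within the LPS range. With means of 206 ± 21.3 and 201 ± 22.6 CPM (SD, n = 4), its log2 fold change was -0.04 ± 0.11 (SE) and the edgeR adjusted p 0.989. For Scnn1b the 95% interval of the fold ran from 0.887 to 1.201 and for Scnn1g from 0.825 to 1.15, the narrowest of the 9 genes.

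ENaC needs its subunits together, so their proportions were compared as well. The FPKM ratio of Scnn1b to Scnn1a was 0.421 ± 0.0999 in LPS and 0.428 ± 0.0927 in LPS + Tan (SD, n = 4), a difference in log2 ratio of 0.03 with p = 0.914 in the exact two-sided permutation test over the 70 arrangements of the lungs. That of Scnn1g to Scnn1a was 0.783 ± 0.118 and 0.759 ± 0.166 (SD, n = 4), a difference of -0.06 with an exact permutation p of 0.771. The smallest p this test can give is 0.0286. Neither proportion differed beyond the spread between lungs.

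Scnn1b and Scnn1g are neighbours on chromosome 7. In the RefSeq annotation of GRCm38.p6, Scnn1g spans chr7:121734420-121768482 and Scnn1b chr7:121865038-121918728, with 96555 bases between them, while Scnn1a lies at chr6:125314271-125344943. Over the 8 lungs, in log2 CPM, the neighbours had a Pearson r of 0.46 (exact permutation p = 0.258), and Scnn1a and Scnn1g of 0.49 (exact permutation p = 0.223). The latter relation rests on a pair of lungs, since without the 2 lungs farthest from the median of Scnn1a the r was -0.88. Scnn1a and Scnn1b had an r of -0.03 (exact permutation p = 0.952).

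The sodium pump subunit was the most abundant of the 9 genes. Atp1b1, at chr1:164437099-164458355, had 714, 726, 716 and 636 CPM in LPS and 539, 765, 553 and 805 CPM in LPS + Tan. The LPS + Tan lungs split into a pair above and a pair below all LPS lungs. With means of 698 ± 41.8 and 666 ± 139 CPM (SD, n = 4), the spread was 5.99% of the mean in LPS and 20.9% in LPS + Tan, a difference in spread that was not tested. The log2 fold change of Atp1b1 was -0.07 ± 0.15 (SE), with an adjusted p of 0.983 by edgeR. Exons of Atp1b1 overlap those of Nme7 on the opposite strand, and it is not given whether counting used the strand. The table listed 418 counts on average for Nme7, and the part of shared reads in the Atp1b1 values was not tested.

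Among the water channels, Aqp1 varied most between lungs. Aqp1, at chr6:55336299-55348555, had 592, 408, 863 and 467 CPM in LPS and 706, 612, 490.0 and 716 CPM in LPS + Tan. Both the highest and the lowest lung were LPS lungs, 2.12-fold apart. Its means were 583 ± 202 and 631 ± 105 CPM (SD, n = 4), with a log2 fold change of 0.12 ± 0.22 (SE) and an edgeR adjusted p of 0.982. Red cells also carry Aqp1. The 10 erythroid markers summed to between 1454 and 3493 CPM in LPS and between 1350 and 2219 CPM in LPS + Tan. None of these markers had a summed count of 0 over the 8 lungs, and single lungs were not checked for this. In a comparison chosen after the data were seen, Aqp1 and the erythroid score, the mean of the markers' centred log2 CPM, had over the 8 lungs an r of 0.10 (exact permutation p = 0.805, adjusted 0.962) and a rho of 0.17 (exact permutation p = 0.703, adjusted 0.928), and an r of -0.66 without the 2 lungs farthest from the median of Aqp1 (exact permutation p = 0.143).

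Aqp5, the water channel of the alveolar surface at chr15:99591028-99594829, had 101, 94.1, 69.9 and 66.9 CPM in LPS and 77.6, 111, 88.5 and 108 CPM in LPS + Tan. The pair of highest lungs were LPS + Tan lungs and the pair of lowest were LPS lungs, with overlap between. The means were 83.1 ± 17.2 and 96.4 ± 16.2 CPM (SD, n = 4), and the log2 fold change of 0.22 ± 0.16 (SE) had an adjusted p of 0.938 by edgeR. The 95% interval of its fold ran from 0.903 to 1.49. The 12 markers of type 1 alveolar cells, the cells that carry this channel, summed to between 4763 and 5240 CPM in LPS and between 4867 and 5793 CPM in LPS + Tan, with none at 0 and none past the unadjusted threshold in either direction. The ratio of Aqp5 to Aqp1 in FPKM was 0.279 ± 0.111 and 0.277 ± 0.0601 (SD, n = 4), with an exact permutation p of 0.857 for the log2 ratio.

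Aqp4, the airway water channel, had 34.8, 38.1, 29.5 and 42.8 CPM in LPS and 24.5, 30.1, 42.6 and 26.5 CPM in LPS + Tan. In LPS + Tan, 3 lungs lay at or below 30.1 CPM and replicate 3 lay near the top of the LPS range. With means of 36.3 ± 5.58 and 30.9 ± 8.15 CPM (SD, n = 4), the log2 fold change was -0.23 ± 0.18 (SE) and the edgeR adjusted p 0.938. Without LPS + Tan replicate 3 the log2 fold change of Aqp4 was -0.43, with an edgeR p of 0.0128 that did not pass after adjustment, the single case among 18 alternative fits in which one of the 9 genes passed the unadjusted threshold.

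Neither chloride carrier passed the test. Cftr, at chr6:18170687-18322770, had 21.8, 19.9, 19.1 and 17.4 CPM in LPS and 23.9, 16.9, 21.5 and 21.0 CPM in LPS + Tan. Both extremes were LPS + Tan lungs. The means were 19.6 ± 1.83 and 20.8 ± 2.91 CPM (SD, n = 4), with a log2 fold change of 0.09 ± 0.12 (SE) and an adjusted p of 0.978 by edgeR. Slc12a2 had 371, 311, 386 and 284 CPM in LPS and 410.4, 392, 344 and 303 CPM in LPS + Tan. The highest pair were LPS + Tan lungs, and the lowest lung an LPS lung. With means of 338 ± 48.4 and 362 ± 48.3 CPM (SD, n = 4), its log2 fold change was 0.10 ± 0.13 (SE) and its edgeR adjusted p 0.977. Antisense transcript Gm15592, which overlaps exons of Cftr, had no row of its own.

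**Figure D2:**
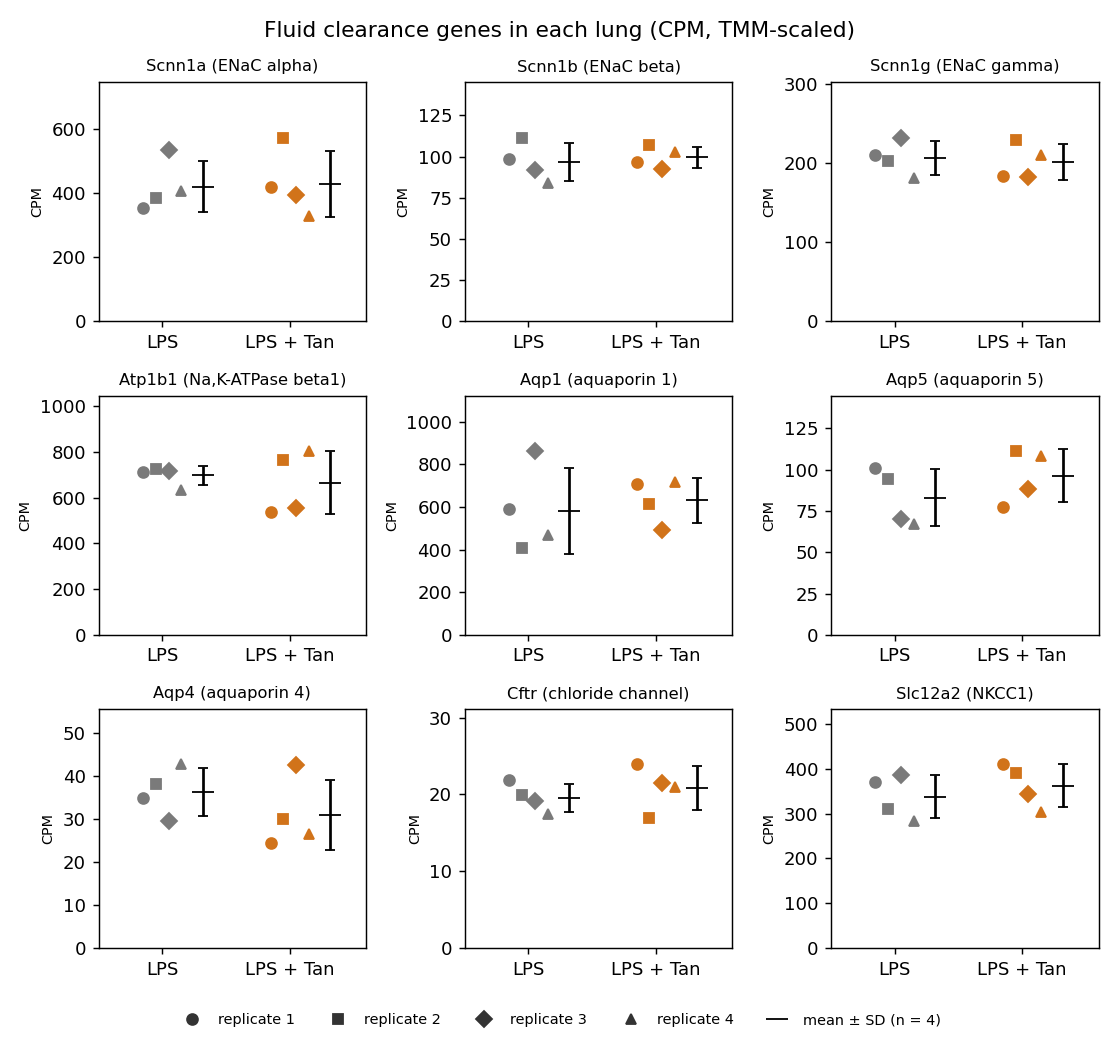
CPM of the 9 fluid clearance genes in each lung, LPS in grey and LPS + Tan in orange, with a marker shape for each replicate number and the mean ± SD (n = 4) beside the points. The groups overlap in all 9 panels, and Atp1b1 shows the LPS + Tan lungs split between 539 and 553 below and 765 and 805 above.

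The 250 bases before the annotated start are shown for 2 of the genes, Scnn1b, which varied least between lungs in CPM though not in FPKM, and Aqp1, which varied most on both scales. RefSeq promoter entries of GRCm38.p6 were matched for 6 of the 9 genes. Both windows are printed 5′ to 3′ on the plus strand, chr7:121864788-121865037 for Scnn1b and chr6:55336049-55336298 for Aqp1, and capitals mark the GC box, GGGCGG or its complement CCGCCC.
Scnn1b: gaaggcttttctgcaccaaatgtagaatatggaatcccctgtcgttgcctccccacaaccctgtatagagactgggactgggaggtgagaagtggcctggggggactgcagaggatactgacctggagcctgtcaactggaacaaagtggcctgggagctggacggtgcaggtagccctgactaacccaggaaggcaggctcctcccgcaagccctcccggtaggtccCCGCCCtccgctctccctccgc
Aqp1: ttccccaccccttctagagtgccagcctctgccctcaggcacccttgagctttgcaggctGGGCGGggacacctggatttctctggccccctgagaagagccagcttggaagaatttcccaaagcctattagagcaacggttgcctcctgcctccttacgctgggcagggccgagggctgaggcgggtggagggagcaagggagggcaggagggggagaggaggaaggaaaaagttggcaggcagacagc
Each window holds 1 GC box, with 60.8% G and C and 7 CpG for Scnn1b and 62% and 5 CpG for Aqp1, against medians of 52.4% and 6 CpG over all 32851 promoter windows.

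The GC box occurred in 6 of the 6 windows matched and in 32.7% of all windows. These 6 windows held between 60.8% (Scnn1b) and 78.4% (Aqp5) G and C, against the median of 52.4% over all windows. The motif counts were not corrected for this composition. The window of Scnn1g, taken from the start in the promoter table, reached 59 bases into the gene span given above, and the other 5 windows ended before theirs. Other motifs were searched on both strands in the same windows. The antioxidant response element core TGACNNNGC, in 10.2% of all windows, the glucocorticoid receptor hexamer AGAACA, in 16.1%, the cAMP response pentamer TGACG, in 17.8%, and the TATA box TATAAA, in 12.4%, were found in 0 of the 6. The NKX2-1 core CTCAAG, in 13.3% of all windows, was found in Aqp1 only of the 6. These are matches of letters in 250 bases and do not show binding.

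Around the 9 genes, 6 lists of related genes held 133 names, of which 129 were in the tables and 103 were tested. Of these, 5 were higher and 4 lower in LPS + Tan at an unadjusted p of 0.05 in edgeR, together 8.74%, against 5.12% of all genes, 2.87% higher and 2.25% lower. No gene of the lists passed after Benjamini-Hochberg adjustment, and their adjusted p started at 0.850. The median log2 fold change over the 103 genes was -0.01. The number that passed depended on single lungs. It was 20 without LPS + Tan replicate 2, 17 without LPS + Tan replicate 4 and 4 without LPS replicate 3. Of the 9 related genes that passed, Adrb1, Adora2b and Slc12a7 kept an unadjusted p below 0.05 in all 18 alternative fits. St14 lost it in 4 of 18, Tmprss4 and Kcnj15 in 5 of 18 each, Sgk3 in 12 of 18, and the scarce Kcne3 and Adrb3 in 6 of the 17 that held them.

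The list of cAMP, beta-adrenergic and dopamine input, which holds receptors and the enzymes and G protein behind them, held 3 of the 5 higher genes, all 3 receptors. Of the 23 genes tested in this list 3 were higher and 0 lower, with a median log2 fold change of 0.10. Adrb1, the beta1 adrenergic receptor, had 28.3, 17.7, 20.6 and 30.4 CPM in LPS and 55.0, 29.0, 42.9 and 42.5 CPM in LPS + Tan. Only LPS + Tan replicate 2 lay within the LPS range. Its means were 24.3 ± 6.07 and 42.4 ± 10.6 CPM (SD, n = 4), a log2 fold change of 0.80 ± 0.21 (SE) with an edgeR p of 0.00373 before and 0.850 after adjustment. Adora2b, an adenosine receptor coupled to cAMP, had 6.65, 6.97, 5.88 and 4.80 CPM in LPS and 9.13, 13.9, 7.92 and 7.23 CPM in LPS + Tan. All LPS + Tan lungs lay above all LPS lungs. The log2 fold change of Adora2b was 0.65 ± 0.22 (SE), with an edgeR p of 0.0128 before and 0.924 after adjustment.

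Adrb3, the beta3 adrenergic receptor, rested on few reads, with CPM between 0.0518 and 0.409 in LPS and between 0.102 and 1.03 in LPS + Tan, and a log2 fold change of 1.88 ± 0.71 (SE) at an edgeR adjusted p of 0.924. LPS + Tan replicate 2 lay within the LPS range. Neither of the most abundant genes of the list passed: Prkar1a, a regulatory subunit of protein kinase A, had a log2 fold change of -0.06 ± 0.10 (SE), and Gnas, the stimulatory G protein, of 0.06 ± 0.09 (SE), at edgeR adjusted p values of 0.980 and 0.982.

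Regulators of ENaC held genes past the unadjusted threshold in both directions. Of 26 tested, 1 was higher and 2 lower, with a median log2 fold change of -0.0040. Sgk3, a kinase of the SGK family, had 27.0, 27.7, 28.8 and 29.2 CPM in LPS and 48.2, 24.9, 35.03 and 37.9 CPM in LPS + Tan, with a log2 fold change of 0.37 ± 0.16 (SE) at an edgeR p of 0.0472 before and 0.924 after adjustment. Here 3 LPS + Tan lungs were above and 1 below all LPS lungs. St14, the membrane protease matriptase, had 54.5, 53.4, 75.4 and 58.4 CPM in LPS and 40.5, 53.0, 48.0 and 51.8 CPM in LPS + Tan, and the groups did not overlap. Its log2 fold change was -0.32 ± 0.13 (SE), with an edgeR p of 0.0309 before and 0.924 after adjustment. For Tmprss4, another membrane protease, the log2 fold change was -0.63 ± 0.25 (SE) at an edgeR p of 0.0292 before and 0.924 after adjustment, and the groups overlapped. Hsd11b1, which regenerates active glucocorticoid, and Tsc22d3, a glucocorticoid target, had log2 fold changes of 0.14 ± 0.15 (SE) and -0.22 ± 0.17 (SE) at edgeR adjusted p values of 0.966 and 0.940.

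Of the 9 pump and FXYD subunits tested, 0 were higher and 0 lower. Fxyd5, a pump regulator, had a log2 fold change of -0.03 ± 0.09 (SE) and an adjusted p of 0.988 by edgeR. In the 3 other aquaporins tested nothing passed the threshold, and Aqp9 and Aqp11, at 0.865 and 0.560 FPKM, had log2 fold changes of -0.31 ± 0.25 (SE) and 0.29 ± 0.31 (SE).

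Of 22 other anion carriers, 0 were higher and 1 lower. Slc12a7, the potassium chloride cotransporter KCC4, had 43.9, 43.8, 38.4 and 37.0 CPM in LPS and 35.5, 34.8, 31.0 and 28.8 CPM in LPS + Tan. No lung of one group lay within the range of the other. The log2 fold change was -0.33 ± 0.10 (SE), with an edgeR p of 0.00767 before and 0.924 after adjustment. Clic5 and Ano6, the most abundant of the list, had log2 fold changes of 0.06 ± 0.13 (SE) and 0.08 ± 0.11 (SE).

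Of 20 other cation channels and exchangers, 1 was higher and 1 lower. Kcnj15, an inward rectifier potassium channel, had 132, 146, 155 and 133 CPM in LPS and 101, 146, 103 and 98.1 CPM in LPS + Tan. Its LPS + Tan replicate 2 lay within the LPS range and the other 3 below it, with a log2 fold change of -0.34 ± 0.13 (SE), an edgeR p of 0.0284 before and 0.924 after adjustment. Kcne3, a potassium channel subunit, was scarce, at 0.335 ± 0.0950 and 0.654 ± 0.252 CPM (SD, n = 4), and had a log2 fold change of 0.96 ± 0.38 (SE) with an adjusted p of 0.924 by edgeR. Slc34a2, the phosphate carrier of type 2 alveolar cells, and Slc9a3r2, a scaffold of apical exchangers, had log2 fold changes of -0.05 ± 0.16 (SE) and 0.27 ± 0.14 (SE).

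**Figure D3:**
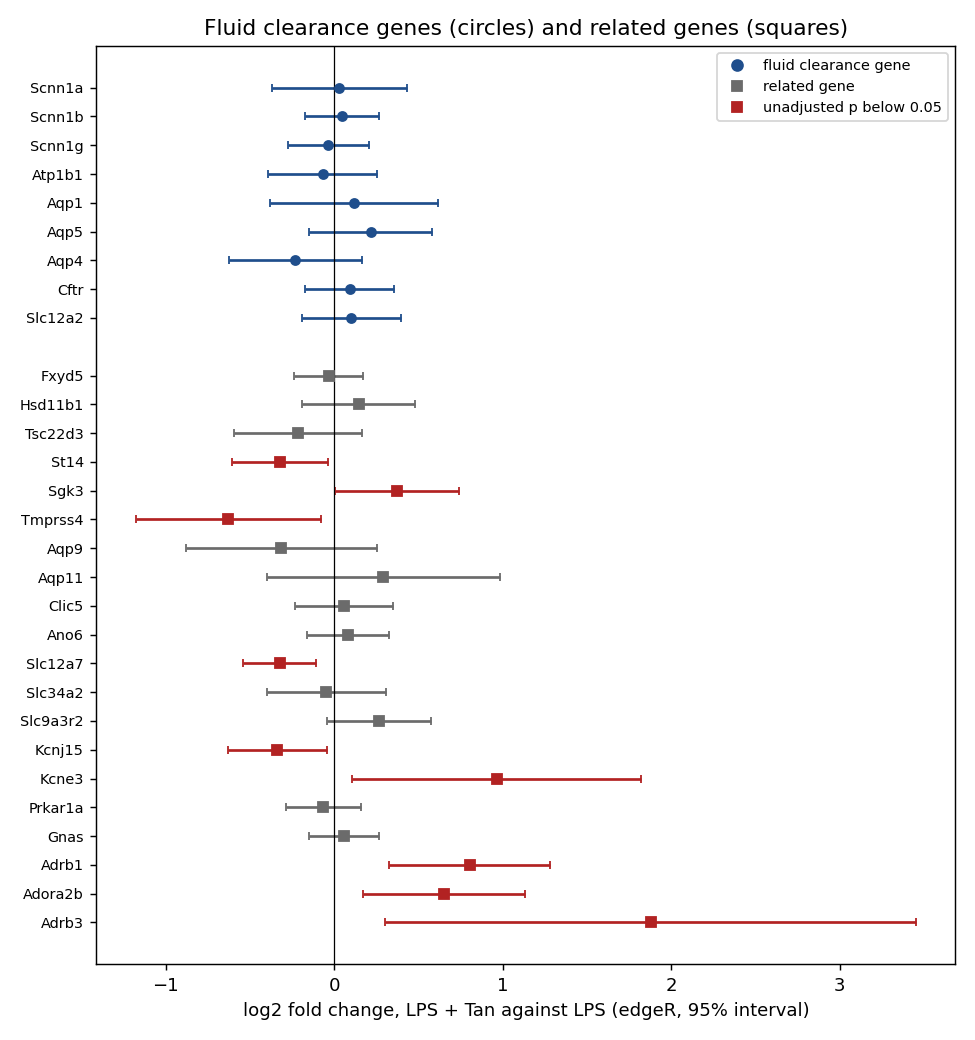
Log2 fold change of LPS + Tan against LPS from edgeR, with 95% intervals, for the 9 fluid clearance genes (blue circles) and the named related genes (squares, red where the unadjusted p was below 0.05). All 9 intervals of the fluid clearance genes span 0, between -0.63 and 0.61, and no gene passed after adjustment.

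**Figure D4:**
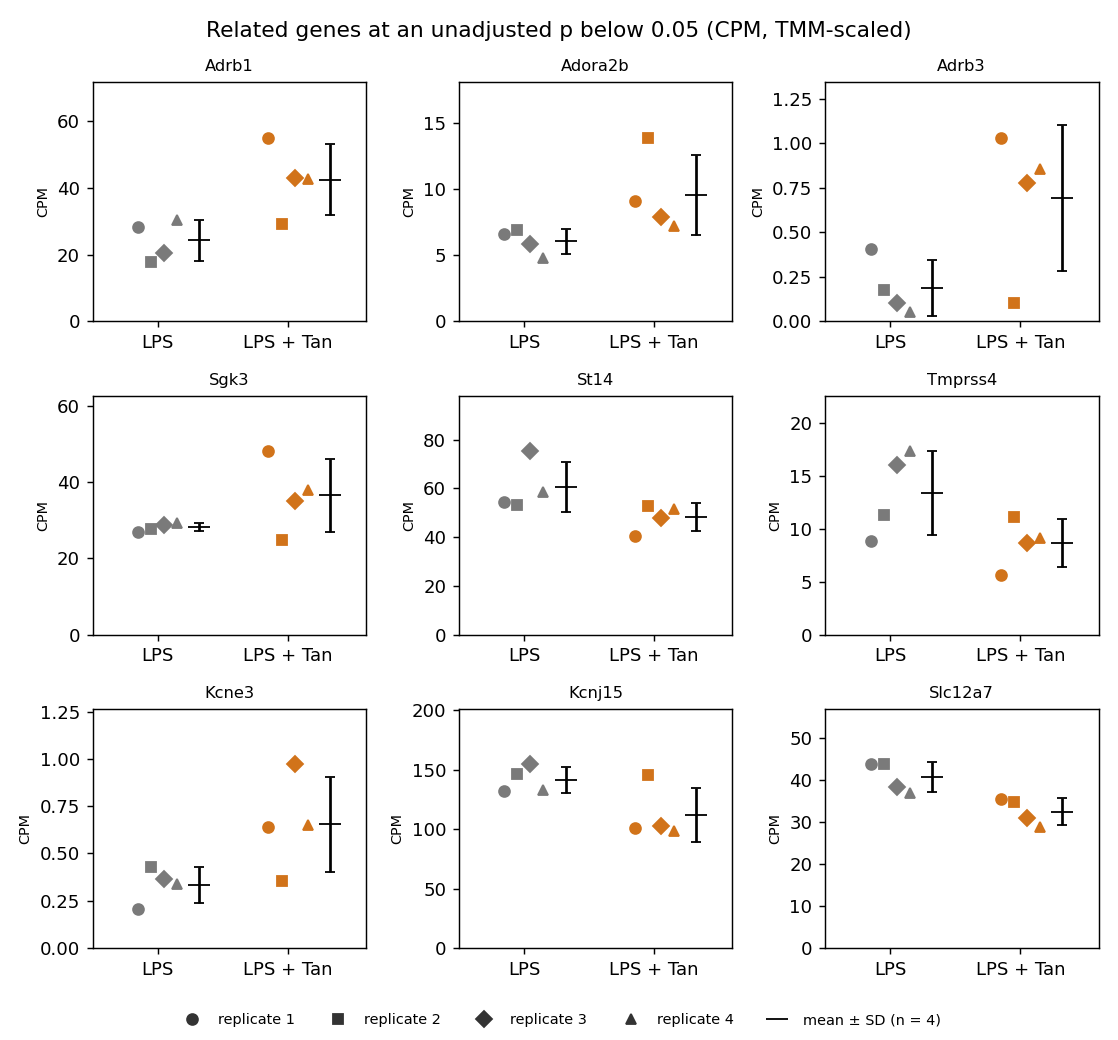
CPM in each lung of the 9 related genes at an unadjusted p below 0.05, LPS in grey and LPS + Tan in orange, with the mean ± SD (n = 4). The groups do not overlap for Adora2b, St14 and Slc12a7, which were picked by their p. Over all genes tested, 2.73% have groups that do not overlap. LPS + Tan replicate 2 (square) lies within the LPS range for Adrb1, Adrb3, Tmprss4, Kcne3 and Kcnj15. For Tmprss4 replicate 4 does so too.

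Levels of the 9 genes were also compared with each other from lung to lung. Of the 36 pairs, correlated over the 8 lungs in log2 CPM, 3 passed an unadjusted exact permutation p of 0.05 and 0 passed after Benjamini-Hochberg adjustment. Aqp1 and Aqp4 ran in opposite directions, with a Pearson r of -0.81 (exact permutation p = 0.0175, adjusted 0.264) and a Spearman rho of -0.83 (exact permutation p = 0.0154, adjusted 0.277). Without the 2 lungs farthest from the median of Aqp1 the r was -0.98, and within LPS and LPS + Tan, with 4 lungs each, it was -0.89 and -0.98.

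Scnn1b and Aqp5 varied in the same direction, with an r of 0.79 (exact permutation p = 0.0212, adjusted 0.264) and a rho of 0.83 (exact permutation p = 0.0154, adjusted 0.277), and with an r of 0.85 without the 2 lungs farthest from the median of Scnn1b. Within LPS and LPS + Tan the r was 0.80 and 0.82. With the group means removed the r was 0.79, and its exact permutation p of 0.0503 no longer passed. Scnn1g and Atp1b1 had an r of 0.79 (exact permutation p = 0.0220, adjusted 0.264) and a rho of 0.69 (exact permutation p = 0.0694, adjusted 0.591). This pair did not hold its p without the 2 farthest lungs, where r was 0.73 with an exact permutation p of 0.113. Nor did it hold with CPM scaled by total counts, where r was 0.69 (exact permutation p = 0.0621). With the group means removed r was 0.79 and p missed as well (exact permutation p = 0.0764). With these means removed, 2 pairs passed unadjusted, Aqp1 with Aqp4 and Atp1b1 with Aqp5. For the latter r was 0.72 (exact permutation p = 0.0347, adjusted 0.531).

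**Figure D5:**
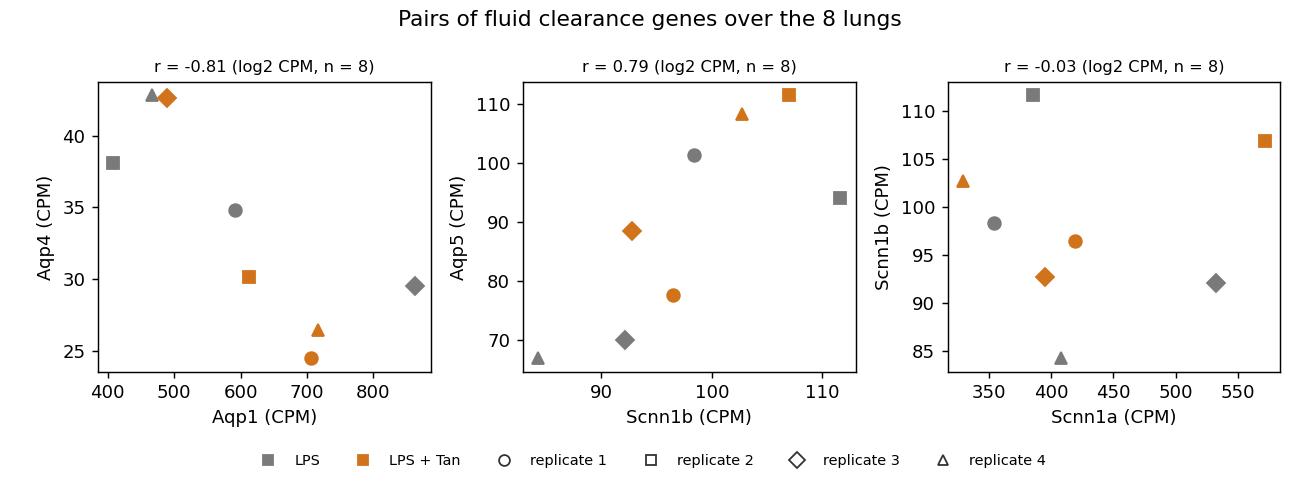
CPM of Aqp4 against Aqp1, of Aqp5 against Scnn1b and of Scnn1b against Scnn1a in the 8 lungs, with colours for the groups, marker shapes for the replicate numbers and the Pearson r of log2 CPM above each panel. The first pair runs opposite, with r of -0.81, the second runs together, with r of 0.79, and the 2 ENaC subunits have an r of -0.03.

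Markers of other cell types were set beside these values, as a choice made after the data were seen. Over the 81 pairs of a gene and a list, 6 passed an unadjusted exact permutation p of 0.05 and 0 passed after adjustment. The 10 neutrophil markers, none of them at 0, summed to between 8858 and 12475 CPM in LPS and between 8969 and 9916 CPM in LPS + Tan. Their score, the mean of centred log2 CPM, was lowest in replicate 2 of both groups, at -0.28 and -0.29, and ran opposite to Scnn1b, with an r of -0.87 (exact permutation p = 0.00508, adjusted 0.206) and a rho of -0.86 (exact permutation p = 0.0107, adjusted 0.434). Without the 2 lungs farthest from the median of Scnn1b the r was -0.92. For Aqp5 and the same score the r was -0.79 (exact permutation p = 0.0217, adjusted 0.391) and -0.67 without the 2 farthest lungs, where the exact permutation p of 0.147 no longer passed.

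Atp1b1, which is also abundant in heart, ran opposite to the score of 10 cardiac muscle markers, with an r of -0.89 (exact permutation p = 0.00360, adjusted 0.206), a rho of -0.79 (exact permutation p = 0.0279, adjusted 0.496) and an r of -0.78 without the 2 farthest lungs. Its p passed neither without these lungs (exact permutation p = 0.0764) nor with the group means removed (exact permutation p = 0.0642). These markers, none at 0, summed to between 170 and 239 CPM in LPS and between 167 and 330 CPM in LPS + Tan, and their score was highest in LPS + Tan replicates 1 and 3, where Atp1b1 was lowest. The 10 airway secretory markers ran opposite to Aqp1, with an r of -0.74 (exact permutation p = 0.0421, adjusted 0.477) and a rho of -0.62 (exact permutation p = 0.115, adjusted 0.595), and with an r of -0.78 without the 2 farthest lungs, where the exact permutation p was 0.0806. The other 2 of the 6 pairs were Scnn1g with the cardiac muscle score and Cftr with the mesothelial score. The part of these cell types in the values of the 9 genes was not tested.

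Summed by list, lung and alveolar markers were present in all lungs. The 12 markers of type 2 alveolar cells summed to between 10137 and 15155 CPM in LPS and between 10283 and 15866 CPM in LPS + Tan, and the airway secretory markers to between 15481 and 21038 and between 14740 and 20287 CPM. At the unadjusted threshold of edgeR, 0 of 12 type 1, 0 of 12 type 2, 0 of 10 secretory, 0 of 10 neutrophil, 0 of 10 erythroid, 0 of 8 mesothelial and 0 of 10 cardiac markers passed. Of 12 endothelial markers 2 were higher, Tek and Kdr, with log2 fold changes of 0.51 ± 0.22 (SE) and 0.37 ± 0.15 (SE), and of 10 ciliated markers 1 was lower, Ccdc153, with -0.38 ± 0.15 (SE), none of them after adjustment. Over all genes 2.87% were higher and 2.25% lower at this threshold. Fitted values, whether past the threshold or not, were higher in LPS + Tan for 7 and lower for 5 endothelial markers, and lower for 10 of 10 ciliated and 10 of 10 erythroid markers, against 51.8% of all genes tested fitted higher and 48.2% fitted lower. The median log2 fold changes of these 3 lists were 0.16, -0.23 and -0.26. Fitted values were lower for 10 and higher for 2 markers of type 2 alveolar cells, with a median log2 fold change of -0.05. For the cardiac muscle markers they were higher for 9 and lower for 1, with a median of 0.29. Markers of a list come from the same lungs, so such counts are not independent. Relative to the LPS mean, the cardiac scores of LPS + Tan replicates 1 to 4 were 0.44, -0.38, 0.84 and -0.22. The erythroid scores were -1.11, 0.17, 0.09 and -0.60, and LPS replicate 2 was at -0.92. Type 1 alveolar markers split into 7 higher and 5 lower, secretory into 4 and 6, mesothelial into 5 and 3 and neutrophil into 6 and 4, with medians of 0.02, -0.09, 0.08 and 0.01.

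The genes most like each of the 9 over the 8 lungs, among those with a mean of at least 1 CPM, were found by Pearson r in log2 CPM, given as a description. For the ENaC subunits they were Ppp4r1 (r of 0.99), Tab2 (0.98) and Rmnd5b (0.98) for Scnn1a, Polr2e (0.96), Snhg7 (0.96) and Trmt2a (0.94) for Scnn1b, and, at ranks 2 and 3, Eif6 (0.97) and Ctla2a (0.96) for Scnn1g. For Atp1b1 they were Mal (0.99), Mrps34 (0.97) and Hcar2 (0.97). The water channels ran with S100a11 (0.98), Rilpl2 (0.97) and Lgals3 (0.94) for Aqp1, with Abhd14b (0.95), P4ha2 (0.95) and Pld3 (0.94) for Aqp5, and with Zfp81 (0.97), Rbm24 (0.95) and Lypd2 (0.94) for Aqp4. For Cftr they were Tpi1 (0.98), Phtf2 (0.98) and Lyrm9 (0.98), and for Slc12a2 Fam168b (0.97), Fpr1 (0.97) and Rnf149 (0.97).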

How the data were processed

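Total RNA of lung was sequenced in 4 LPS and 4 LPS + Tan samples, grouped by the labels. Per the study's methods the libraries were made with TRIzol and a VAHTS kit, whereas the labels name RNeasy and SMARTer kits. The authors deposited raw read counts per gene and FPKM values for the same 24584 genes. GRCm38 and mm10 are builds from the submitters' processing notes. The aligner, the counter, the annotation and the strand setting of counting were not given in the sources used here. Total counts lay between 38895654 and 39931970, and whether depth limited any of the genes was not tested. Nothing in the labels says more of the samples than that they are separate lungs, and p-values measure the spread between these samples. Between pairs of samples of one group, the median squared deviation of counts was 7.84 to 23.0 times that expected from sampling noise.

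Counts were tested in R 4.3.3 with the quasi-likelihood test of edgeR 4.0.16 (filterByExpr, TMM scaling, no covariate), and p was adjusted by Benjamini-Hochberg over all 15706 genes tested. The SE was derived from the log2 fold change and its F statistic. Scripts were tested on simulated data. FPKM served for levels between genes and for ratios, compared by exact two-sided permutation tests. CPM correlations used log2(CPM + 0.01). Positions and promoter windows came from RefSeq, overlaps from the GENCODE annotation. Alternatives were DESeq2 1.42.0, other scalings and filters, limma 3.58.1 with voom on counts and on log2(FPKM + 1) and log2(FPKM + 0.1), the replicate number as a block, and leaving out each sample.

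The genes and lists were chosen with earlier results of these data known, and no list has a test of its own. Named are the 9 genes, the listed genes at an unadjusted p below 0.05, the 2 of each list with the highest FPKM, the 3 most similar genes for each, and the marker genes that passed, which were added after their values were seen. Of the genes this rule names, 2 are not reported here.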

Additional observations from a re-analysis of the deposited data

Results flagged for a closer look

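In 5 of 64 groups of 4 samples examined, 1 sample stood apart from the other 3, where chance gives about 3.2. The share of the group's range taken by the gap to the nearest sample was compared with the critical value of Dixon's test at 95%. Among the 9 genes this held for Atp1b1 in LPS, where replicate 4 was lowest at 636 CPM, next to 714, a gap of 0.863 of the range.

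Among the related genes, LPS + Tan replicate 2 stood apart for Kcnj15, highest at 146 next to 103 CPM (0.907 of the range), and for Slc9a3r2, lowest at 190.0 next to 248 CPM (0.918). In LPS, replicate 2 was lowest for Fxyd5, at 132 next to 156 CPM (0.830), and for Prkar1a, at 447 next to 496 CPM (0.911). No cause was tested.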

How the results depend on the processing

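None of the 9 genes passed at an adjusted p of 0.05 in any of the 18 alternative fits, and none had groups that did not overlap. The number at an unadjusted p of 0.05 was 0 to 1 with each sample left out (1, Aqp4, without LPS + Tan replicate 3) and 0 in the others. With each sample left out, log2 fold changes ran from -0.14 to 0.17 for Scnn1a, -0.014 to 0.12 for Scnn1b, -0.10 to 0.026 for Scnn1g, -0.17 to 0.019 for Atp1b1, -0.026 to 0.37 for Aqp1 and -0.43 to -0.14 for Aqp4, so the sign of the first 5 rested on single samples. The signs of Aqp5, Cftr and Slc12a2 held in all 18, with values from 0.12 to 0.33, 0.014 to 0.18 and 0.026 to 0.18 with each sample left out. On FPKM with limma, Scnn1g was at 0.0048 with 1 added (with and without the filter) and 0.0049 with 0.1 added, Fxyd5 at 0.0095 and 0.0096, and Slc34a2 at 0.0025 and 0.0026, all against small negative values in edgeR. The cause was not tested. Leaving out each sample, Fxyd5 ran from -0.10 to 0.0099, Clic5 from -0.0022 to 0.14 and Slc34a2 from -0.15 to 0.041, and the log2 ratio differences from -0.11 to 0.15 (Scnn1b to Scnn1a), -0.20 to 0.032 (Scnn1g to Scnn1a) and -0.22 to 0.28 (Aqp5 to Aqp1). Of the related genes, 4 to 20 passed with each sample left out and 7 to 12 otherwise. When single samples were omitted, log2 fold changes ran from 0.41 to 0.77 for Adora2b and from 0.21 to 0.52 for Sgk3. They ran from -0.38 to -0.20 for St14 and from -0.32 to -0.079 for Tsc22d3. Of the correlated pairs, 8 passed in place of 3 without the 2 farthest samples, and 2 to 5 with each sample left out, the latter and the correlations under other scalings having been chosen after seeing the data.

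Same-numbered samples of the groups did not deviate together over the genes tested (correlations of 0.12, -0.03, -0.15 and 0.02). A small shared effect could go unseen in such correlations, and the labels give these samples only a common number. With the replicate number as a block, 0 of the 9 genes and 11 of the related genes passed the unadjusted threshold. The log2 fold changes of the 9 under the block were 0.02 (Scnn1a), 0.05 (Scnn1b), -0.04 (Scnn1g), -0.09 (Atp1b1), 0.17 (Aqp1), 0.22 (Aqp5), -0.26 (Aqp4), 0.08 (Cftr) and 0.10 (Slc12a2).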
